A study of Bos taurus with 2 samples.

Results

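The genes described here are 8 products of the ruminant trophoblast, followed in single cells of day 25 bovine embryos: PAG2, PAG8, PAG11, PAG12, SSLP1, TKDP1, TKDP4 and PAGE4. They were taken by name from the deposited table, and all 8 are among its 17846 genes. The series holds 1 group of 2 single-cell RNA libraries, replicate 1 and replicate 2, from day 25 chimeric embryos of Bos taurus that carried incorporated bovine embryonic stem cells. All the embryos were chimeric, and no unmodified embryos were analysed here. Whether each library had its own embryos is not stated, so spread between the libraries may be technical. Cells were freed with papain, sorted (the gate is not given in the labels), and captured on the 10x Genomics Chromium 3′ platform, so every number of trophoblast cells below also depends on that gate.

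The trophoblast is the outer layer of the conceptus that becomes the fetal side of the placenta. In ruminants it consists of mononucleate cells and of binucleate cells, which form from the mononucleate cells and fuse with the uterine lining. Pregnancy-associated glycoproteins (PAG) are secreted members of the aspartic proteinase family, of which many have lost catalytic activity, and some are measured in maternal blood to diagnose pregnancy in cattle. PAG2, PAG8, PAG11 and PAG12 belong to the evolutionarily older branch of that family. TKDP1 and TKDP4 are trophoblast Kunitz domain proteins, secreted relatives of a protease inhibitor. SSLP1, also named SOLD1, is a secreted protein of the Ly-6 family. PAGE4 is no glycoprotein of the PAG family despite its symbol, and in human it is known as a cancer and testis antigen that is also made in placenta.

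Transcripts were counted as UMI, or unique molecular identifiers. There were 1973 barcodes with 11182089 UMI in replicate 1 and 2464 barcodes with 15427708 UMI in replicate 2. Median depth was 4889 and 5601 UMI per barcode. The libraries had 6 barcode sequences in common, none of them in a barcode with at least 3 UMI of a member. PAG and TKDP genes are families of similar copies, so reads of close relatives may have been split or dropped in the authors' counting, and every count of a family member carries that uncertainty. With 2 libraries of 1 group there was no pair of conditions to test, and classes made by clustering are not tested against each other, so all differences below are descriptions. Intervals are exact 95% intervals and cover counting error only.

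Transcripts of the 8 genes were concentrated in very few barcodes. At least 3 UMI of some member were found in 9 barcodes of replicate 1 and 14 of replicate 2, or 0.456% and 0.568% of barcodes. PAGE4 had 1447 and 1084 UMI in replicates 1 and 2, of which 98.6% and 97.4% lay in 9 and 12 barcodes with at least 3 UMI. PAG2 had 1548 and 639 UMI, with 98.6% and 97.3% of them in 8 and 10 such barcodes. PAG8 had 619 and 454 UMI, with at least 3 UMI in 6 and 11 barcodes. Even the scarcer genes followed this concentration, except TKDP1 in replicate 1. SSLP1 had 280 and 536 UMI in all, and reached 3 UMI in 6 and 13 barcodes. PAG11 had 174 and 218 UMI, with 5 and 9 such barcodes, and PAG12 had 139 and 125 UMI, with 4 and 7. TKDP4 had 88 and 383 UMI, with 6 and 9 barcodes at 3 UMI or more. TKDP1 was the rarest member, at 5 and 25 UMI, and it reached 3 UMI in 0 of 1973 barcodes of replicate 1 (interval 0 to 0.187%) and in 4 of 2464 of replicate 2.

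The members were found together. Of the 23 barcodes with at least 3 UMI of any member, 20 had at least 3 UMI of 2 or more, 17 of 4 or more and 9 of 7 or more. All 8 members reached 3 UMI in 3 barcodes, all of them in replicate 2. The 4 glycoproteins were largely nested: each of the 11 PAG12 barcodes also had at least 3 UMI of PAG2, PAG8 and PAG11, and each of the 14 PAG11 barcodes had PAG8, while 13 had PAG2. Of 18 PAG2 barcodes 16 had PAG8, which is 88.9% of the PAG2 and 94.1% of the PAG8 barcodes. PAGE4 reached 3 UMI in 17 of the 18 PAG2 barcodes (94.4%), which is 81.0% of the PAGE4 barcodes. SSLP1 and TKDP4 shared 14 barcodes, or 73.7% of the SSLP1 and 93.3% of the TKDP4 barcodes. In each barcode the members took between 0.184% and 5.84% of all UMI, with a median of 3.26%.

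**Figure D1:**
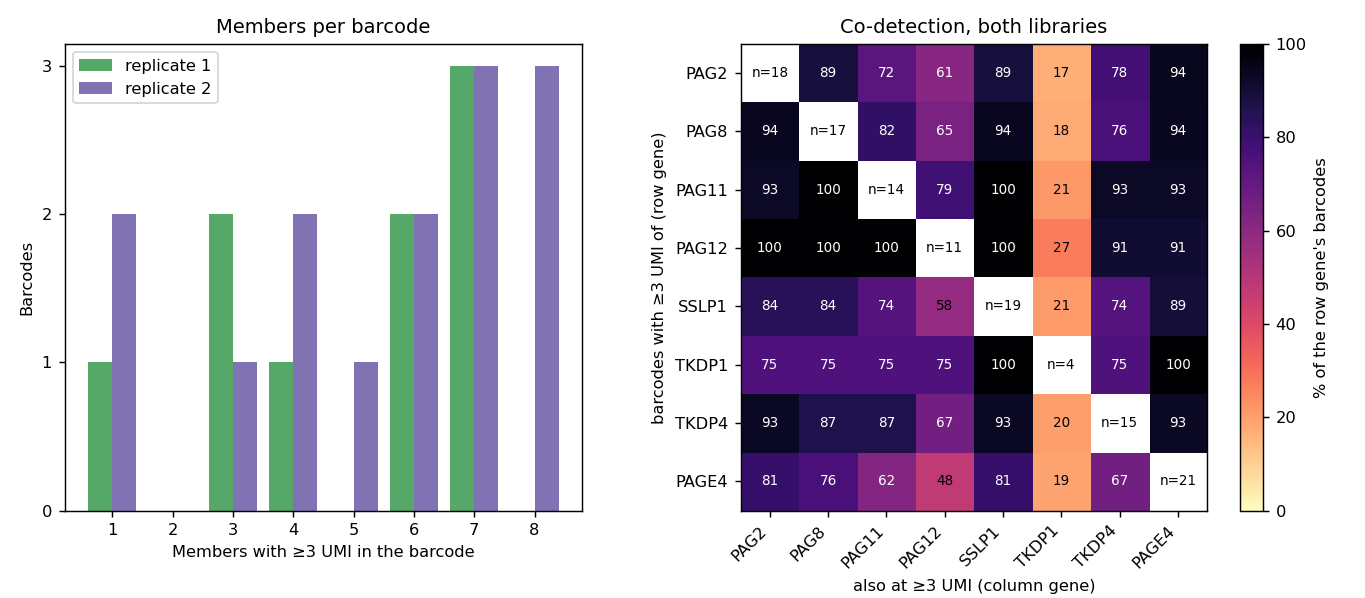
Left, number of barcodes (y) by how many of the 8 members had at least 3 UMI (x) in replicate 1 and replicate 2. Right, share of the row gene's barcodes in which the column gene also had at least 3 UMI, over both libraries, with the row gene's number of barcodes on the diagonal. In all, 13 of 23 barcodes had 6 or more members, and TKDP1 stands apart with 4 barcodes.

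Cells were then grouped by clustering without these 8 genes and without any other PAG or TKDP gene, so that the groups did not rest on them. One cluster of 17 cells, 7 in replicate 1 and 10 in replicate 2, was called trophoblast-like. It carried 9 of 19 measured trophoblast markers: GATA2, GATA3, TFAP2A, TFAP2C, HAND1, PPARG, KRT8, KRT18 and CLDN4. Several of these are shared with other epithelia, and ELF5 and ASCL2 had no UMI in it. An ionocyte-like cluster of 28 cells carried 12 of the same 19 markers, among them GATA2, GATA3, TFAP2A, 4 keratins and CDH1, and was named instead from all 5 of its ionocyte markers. All 10 neuron markers together reached 8.79 CPM (UMI per 1000000 UMI of the class) in trophoblast-like cells of replicate 1 and 0 CPM in replicate 2, against 1246 and 1333 CPM in all other cells. Cardiomyocyte and endothelial markers had no UMI in it. Of the 5 measured macrophage markers 3 had no UMI in it. The list stood at a summed 448 and 752 CPM against 12.6 and 13.8 CPM in the other cells. AIF1 alone gave 440 and 752 CPM of this sum. It stood at 823 and 1164 CPM in the binucleate trophoblast-like cluster described below. Other genes of immune cells were not on this list and were not surveyed. The part of these markers in the results was not tested. Trophoblast-like cells were 0.38% (interval 0.153 to 0.781) and 0.433% (0.208 to 0.795) of clustered cells.

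Each of these 17 cells had at least 3 UMI of 1 or more members, and no member had entered the clustering. The members were chosen with earlier results of these data known, so this describes the class and does not test it. With replicate 2 clustered alone, 9 of 13 cells of the class had 3 UMI of a member, and replicate 1 alone gave no such class. The 17 cells held 96.8% of all member UMI in replicate 1 and 94.5% in replicate 2. Of the other 6 member barcodes, 5 had been left out of the clustering for low depth, at 936 UMI or fewer, and 1 was in the ionocyte-like cluster. Together the 8 genes made up 3.66% and 3.04% of all UMI of trophoblast-like cells. Their median depth was 17038 and 7012.5 UMI per cell, against 5227 and 5966 in all other cells.

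Levels of the members in trophoblast-like cells stood at least 1019-fold above those of all other cells in both libraries for 7 of the 8 genes. PAGE4 stood at 12443 CPM (interval 11803 to 13109) in replicate 1 and 9593 (9017 to 10196) in replicate 2, against 1.73 and 1.98 CPM in the cells outside. PAG2, at 13349 CPM (12686 to 14038) and 5609 (5171 to 6075), against 1.73 and 1.05 CPM outside, was above PAGE4 in replicate 1 and below it in replicate 2. These were folds of 7181 and 4852 for PAGE4 and of 7704 and 5319 for PAG2. PAG8 was at 5285 and 4003 CPM against 1.09 and 0.791 CPM outside. SSLP1, at 2278 and 4606 CPM against 1.37 and 1.91 outside, was below PAG8 in replicate 1 and above it in replicate 2. Of the 29 SSLP1 UMI outside in replicate 2, 17 lay in 1 ionocyte-like cell, and without it the outside level was 0.792 CPM. TKDP4 was at 651 CPM in replicate 1 and 3427 in replicate 2, against 0.638 and 0.527 outside. Between libraries TKDP4 and PAG2 thus differed in opposite directions. PAG11 was at 1389 and 1867 CPM against 1.19 and 0.527 outside. PAG12, at 1205 and 1114 CPM, had no UMI at all in 1835 and 2300 cells outside, which puts it at least 4403-fold and 5636-fold higher at a floor of 3 counts per library.

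TKDP1 was the exception in level. Its 18 UMI in trophoblast-like cells of replicate 2 gave 167 CPM (interval 99.1 to 264) against 0.461 CPM outside. In replicate 1 a single UMI in 7 cells gave 8.79 CPM against 0.365 CPM outside, a ratio of 24.1 with a counting interval of 0.489 to 244, which spans equality. Of those 4 UMI outside, 3 lay in cluster 15, described below, and without it the outside level was 0.0932 CPM and the ratio 94.4, on 1 UMI against 1 and with an interval of 1.2 to 7409. Of the 7 TKDP1 UMI outside in replicate 2, 6 lay in the 1 ionocyte-like cell described below, and without it the outside level was 0.0660 CPM.

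**Figure D2:**
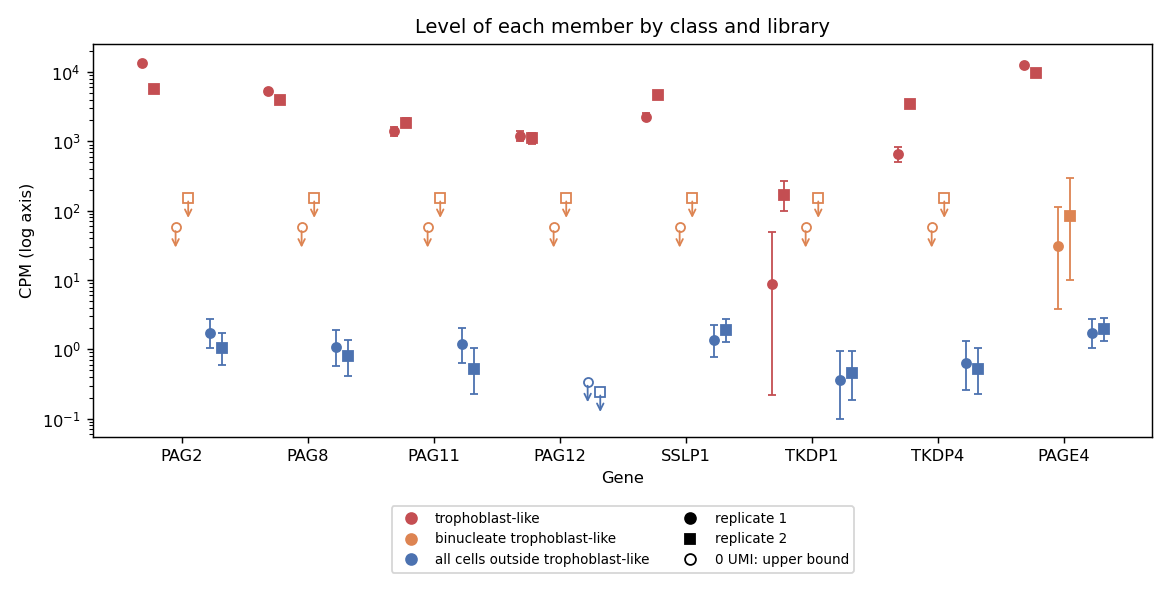
Level of each member in CPM (log axis) in trophoblast-like cells, binucleate trophoblast-like cells and all cells outside the trophoblast-like class, for replicate 1 (circles) and replicate 2 (squares), with exact 95% Poisson intervals. Open symbols with arrows are upper bounds where no UMI was found. Trophoblast-like levels are 651 CPM or more in both libraries for every gene but TKDP1, and outside levels are at most 1.98 CPM for all 8.

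Genes were also counted at 10-fold, a bar far below the folds of all members but TKDP1. Among 15231 genes with at least 10 UMI, 230 were at least 10-fold higher in trophoblast-like cells than outside in both libraries, or 1.51%. All 8 members were among them, TKDP1 in replicate 1 on its 1 UMI. PAG12, with no UMI outside, met the minimum of 10 UMI only through this class. The members were chosen with earlier results of these data known, so their count and folds describe them and carry no test. The median fold over the 8 members was 3034 and 4956, while over all 15231 genes it was 0, since most genes had no UMI in so few cells. Of the list of trophoblast regulators 4 of 13 tested genes passed 10-fold: TFAP2C, CDX2, HAND1 and PPARG. CDX2 passed on 2 and 1 UMI. All but CDX2 of these 4, and CLDN4 below, are markers that named the cluster. None of them was withheld from the clustering, so these counts describe it and do not test it. CDX2, HAND1, PPARG and CLDN4 also passed 10-fold in the binucleate trophoblast-like cells described below. HAND1 stood there at 870 and 499 CPM, against 211 and 362 in trophoblast-like cells. PPARG stood at 140 and 208 CPM there, against 114 and 27.9. TFAP2C, a transcription factor of early trophoblast, stood at 52.8 and 65.0 CPM against 0.0912 and 0.264 outside. GATA3, another trophoblast regulator, stood at 422 and 269 CPM against 367 and 343 outside, so its level there did not set these cells apart. Over the 13 tested regulators the median fold was 2.90 and 2.76. TEAD4 stood lower than outside, at 8.79 and 9.29 CPM against 22.5 and 19.9. So did ETS2, at 8.79 and 9.29 CPM against 23.6 and 22.2. Both rest on 1 UMI per library, and ELF5 and ASCL2 had no UMI. Among steroid synthesis genes 3 of 4 tested passed 10-fold. CYP11A1, which makes pregnenolone from cholesterol, stood at 246 and 158 CPM against 0.456 and 1.05 outside. HSD3B1 passed on 11 and 2 UMI, and STAR on 2 and 13. HSD3B1 also passed in binucleate trophoblast-like cells, on 2 and 1 UMI, and is a marker that named that cluster. None of these 3 was withheld from the clustering. Epithelial genes passed in 2 of 8 cases, CDH1 and CLDN4, while KRT19 stood at 1460 and 1737 CPM against 316 and 501.

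Averaged over the 2 libraries, PAGE4 came first at 11018 ± 2015 CPM and PAG2 second at 9479 ± 5473 (SD, n = 2). They did not differ beyond that spread, and PAG2 was the higher of the pair in replicate 1. PAG8 followed at 4644 ± 907, SSLP1 at 3442 ± 1647, TKDP4 at 2039 ± 1963, PAG11 at 1628 ± 337 and PAG12 at 1160 ± 63.9. From PAGE4 down to PAG11 each step in this order was smaller than the SD of at least one of the neighbouring genes. TKDP1 was last, at 88.0 ± 112 CPM, far below PAG12. A 3′ UMI counts a transcript once whatever its length, so these levels can be set side by side, although capture can differ between transcripts.

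The cells of the class varied widely among themselves. PAG2 had 0 to 607 UMI per cell in replicate 1, with a median of 133, and 1 to 209 in replicate 2, with a median of 44. PAGE4 had 30 to 425 UMI in replicate 1, with a median of 208, and 0 to 480 in replicate 2, with a median of 58. Scaled to depth the PAGE4 range narrowed in replicate 1 to between 7223 and 16470 CPM, while in replicate 2 it ran from 0 to 34934 CPM. One deep cell of replicate 2 had 13561 UMI, of which 209 were PAG2, 114 PAG8 and 74 TKDP4 but only 1 PAGE4. The reverse held in a cell of replicate 1 with 18274 UMI, which had 132 PAGE4 UMI but only 5 of PAG2 and 1 of PAG8. Another cell of replicate 1, at 2015 UMI, had 30 PAGE4 and no PAG2 UMI. PAGE4 and the glycoproteins were thus not in a fixed ratio from cell to cell.

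A single cell could carry a large part of a gene's class total. One cell gave 70.3% of the PAG11 UMI and 63.5% of the TKDP4 UMI of replicate 1, and one gave 46.5% of the PAGE4 UMI of replicate 2. SSLP1 was present in all 17 cells, with 3 to 153 UMI in each of the 10 cells of replicate 2 and 1 to 69 in the 7 of replicate 1. TKDP4 ran from 0 to 47 UMI in replicate 1, with a median of 3, and from 0 to 113 in replicate 2, with a median of 17.5. TKDP1 reached 3 UMI in 3 trophoblast-like cells, with 8, 7 and 3 UMI, all in replicate 2. The same 3 cells had 74, 63 and 22 UMI of TKDP2, another trophoblast Kunitz domain gene, while the other 7 trophoblast-like cells of that library had at most 2. In RefSeq's ARS-UCD2.0 annotation TKDP4 lies next to both TKDP1 and TKDP2, and close copies can exchange reads.

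**Figure D3:**
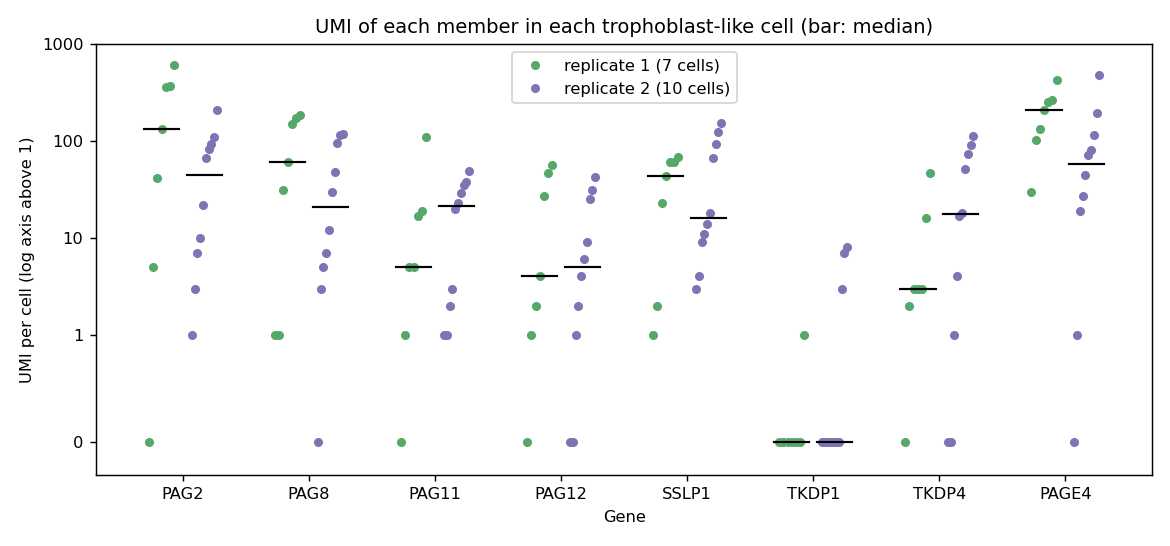
UMI of each member (y, log axis above 1) in each of the 7 trophoblast-like cells of replicate 1 and the 10 of replicate 2, with the median as a bar. PAGE4 runs from 30 to 425 UMI in replicate 1 and from 0 to 480 in replicate 2, and TKDP1 is at 0 in all but 4 cells.

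The glycoprotein family divided between 2 kinds of barcode. A second cluster, of 7 and 4 cells, was named binucleate trophoblast-like from 9 of 12 markers, among them CSH2, a placental lactogen, GCM1, a transcription factor of trophoblast differentiation, and 6 prolactin-related protein genes. None of the 4 member glycoproteins, SSLP1, TKDP1 or TKDP4 had a UMI in it, which allows at most 57.3 CPM in replicate 1 and 153 CPM in replicate 2 for each. These bounds lie below the trophoblast-like levels of all members but TKDP1, yet above the levels outside, so a level as low as that of the other cells was not detectable at this depth. PAGE4 had 2 UMI in each library there, or 31.1 CPM (interval 3.76 to 112) and 83.1 (10.1 to 300).

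Other PAG genes showed the opposite pattern. The table holds 15 of them, counting a second PAG1 row that it names PAG1.1. A row named PAG1 alone was left out, since RefSeq gives that symbol to a gene outside the family, and the row had UMI in 1044 barcodes. Of 17 barcodes with at least 3 UMI of a prolactin-related protein gene or CSH2, none had 3 UMI of a member. Over all barcodes the share with 3 UMI of a member was 0.518%, so none among 17 is no finding by itself. These 17 barcodes held 1025 of the 1091 UMI of the 15 other PAG genes and 0 of the 3916 UMI of PAG2, PAG8, PAG11 and PAG12. In contrast, the 23 member barcodes held 3832 of the 3916 UMI of the 4 glycoproteins, which chose these barcodes in part, and 1 of the 1091 UMI of the other 15. By library, the other 15 had 1 UMI in member barcodes of replicate 1, against 805 in the prolactin-related or CSH2 barcodes, and 0 against 220 in replicate 2. The 15 genes had no role in choosing either set. Prolactin-related protein genes and CSH2 had 1 UMI in the member barcodes, against 3535 in the 17 barcodes they chose. TKDP2 went with the members, with 170 UMI in the member barcodes and 0 in the 17.

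Of the 15 other PAG genes, 13 were at a lower level in trophoblast-like than in binucleate trophoblast-like cells in both libraries. PAG7, PAG17 and PAG9 had 0 UMI in trophoblast-like cells. In binucleate trophoblast-like cells PAG7 stood at 1848 and 1330 CPM, PAG17 at 1242 and 1621 CPM, and PAG9 at 1196 and 1496 CPM. The other named members of this set at 50 UMI or more, PAG5, PAG4, PAG16, PAG20 and PAG1.1, had 0, 0, 1, 0 and 0 UMI in the member barcodes, against 97, 114, 75, 77 and 48 in the 17. PAG10, which is also placed in the older branch of the family, was found with this second set: it had 0 of its 138 UMI in the member barcodes and 127 in the 17. In the RefSeq order PAG10 lies next to PAG2, and PAG2 next to PAG12. As a background, 1.46% of 15231 genes were at least 10-fold higher in binucleate trophoblast-like cells than in all other cells in both libraries, and this held for 13 of the 15 tested PAG and TKDP genes outside the members, for all 8 binucleate cell products and for 0 of the 8 members. The cluster was named from 7 of those 8 products, and none of the 8 was withheld from the clustering, so their count is no finding.

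**Figure D4:**
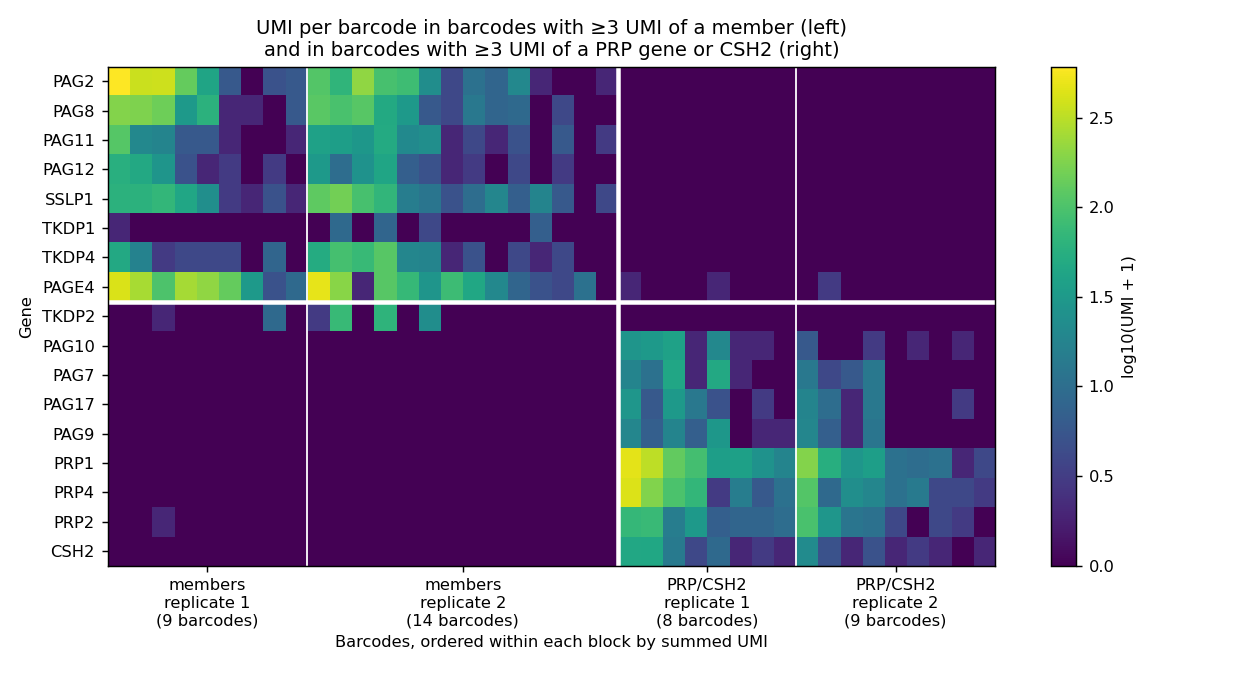
UMI per barcode, as log10(UMI + 1), for the members (upper rows) and for TKDP2, 4 other PAG genes, 3 prolactin-related protein genes and CSH2 (lower rows). Columns are the 9 and 14 barcodes with at least 3 UMI of a member and the 8 and 9 with at least 3 UMI of a prolactin-related protein gene or CSH2. UMI of the members and TKDP2 lie in the left block, and the 4 UMI of PAGE4 are the only member UMI on the right. UMI of the other genes lie in the right block, except 1 of a prolactin-related protein gene. TKDP1, TKDP2 and several of the other genes are at 0 in part of the barcodes of their block.

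Outside the trophoblast-like class single UMI of the members were scattered thinly. In all, 89 member UMI were found in 1835 cells of replicate 1 and 110 in 2300 cells of replicate 2, a summed 8.12 and 7.25 CPM against 36608 and 30386 CPM in trophoblast-like cells. At least 1 UMI of a member was present in 4.47% and 3.26% of the outside cells, and 2 or more members in 3 and 5 cells. PAGE4 was found in 1.04% of outside cells in each library, at median depths of 5227 and 5966 UMI. In clusters named from the neural progenitor and neuron lists it was found in 0.916% and 0.975% of cells, at median depths of 5154 and 5772 UMI. These cells are most of those outside, so both shares rest largely on the same cells and their closeness is no finding. The interval of the outside share was 0.625 to 1.61% in replicate 1 and 0.67 to 1.55% in replicate 2. When each cell was thinned to 1000 UMI, all 7 and 10 trophoblast-like cells kept a UMI of some member, against 0.981% and 0.696% of outside cells.

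The mix of members among these UMI was set beside that in trophoblast-like cells, with no test made. In replicate 1 PAG2 made up 36.5% of member UMI in trophoblast-like cells and 21.3% outside, SSLP1 6.22% and 16.9%, PAG11 3.80% and 14.6%, and PAG8 14.4% and 13.5%. In replicate 2 the outside mix turned on the 1 ionocyte-like cell. SSLP1 was 15.2% in trophoblast-like cells and 26.4% outside, or 14.8% of the 81 outside UMI left without that cell. Without it PAG2 was 18.5% in trophoblast-like cells and 18.5% outside, PAG8 13.2% and 14.8%, PAGE4 31.6% and 32.1%, and TKDP4 11.3% and 8.64%. PAG12 was 3.29% and 3.67% in trophoblast-like cells of the 2 libraries and had 0 UMI outside.

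Across the 24 clusters the summed level ran from 33582 CPM in the trophoblast-like cluster, over both libraries pooled, through 207 CPM in the ionocyte-like cluster, 80.2 CPM in cluster 15 and 45.2 CPM in the binucleate cluster. The other 20 clusters lay between 1.62 and 19.9 CPM. The ionocyte-like level rested on 1 cell of replicate 2 with 15732 UMI. It had 17 UMI of SSLP1, 6 of TKDP1, 4 of PAGE4 and 1 each of PAG2 and TKDP4, besides 15 of KRT8 and 44 of KRT19. Without that cell the cluster stood at 23.9 and 18.2 CPM. Cluster 15, named from the neural progenitor list, had 68 cells, 67 of them from replicate 1, with a median of 3172.5 UMI. It held 19 member UMI in 16 cells, spread over 7 of the 8 genes, and so 19 of the 89 UMI found outside in replicate 1. Its part in the outside level of that library is given with the alternatives.

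A row that the deposited table names GFP, the symbol of a fluorescent reporter, had 13 UMI in the 23 member barcodes. It was found in 12 of them, with at most 2 UMI in any one. SOX2, a neural progenitor gene, had no UMI in any of the 23. The shares of all barcodes with GFP or SOX2 are not given here, so neither count sets the 23 barcodes apart.

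Genes whose barcodes were most like those of the members were ranked by the Jaccard index, the number of shared barcodes over the number in either set, between the barcodes with at least 3 UMI of a gene and the 20 with 2 or more members. FBP1, a gluconeogenic enzyme, came first among named genes outside these families at 0.667, with 14 of its 15 barcodes shared. DEFB followed at 0.6, with all 12 of its barcodes shared, then TSPAN1, a tetraspanin, at 0.524 and C15H11orf34 at 0.515. CD48, a cell-surface glycoprotein, had an index of 0.5, as did RAB25, an epithelial trafficking GTPase. S100A14 reached 0.483, NT5E, the ectoenzyme that makes adenosine, 0.478, PHLDA2, an imprinted gene known in mouse to restrain placental growth, 0.457, and CTSL, a lysosomal protease, 0.433. The most abundant of these 10 in replicate 1 were PHLDA2 and C15H11orf34. PHLDA2 stood at 4564 and 3037 CPM in trophoblast-like cells against 7.39 and 7.78 outside, and C15H11orf34 at 4159 and 3891 against 9.85 and 10.2. CTSL, at 1724 and 3594 CPM against 7.20 and 3.30 outside, was above PHLDA2 in replicate 2. Among the members themselves the index ran from 0.9 for PAG2 down to 0.55 for PAG12 and 0.2 for TKDP1, whose 4 barcodes were all shared. The members chose these barcodes, so the ranking describes these libraries and carries no test.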

How the data were processed

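Each library is a 10x 3′ (v3.1) matrix of whole-number UMI counts per gene and barcode, deposited by the authors and unnormalized. Per the submitters' processing notes the build was bosTau9 and the tools were Cell Ranger, R 4.1.2 and Seurat 4.3.0, and further settings are not given in the sources used here. Members were found by symbol, and 0 columns were unmapped. The members and gene lists were chosen with earlier results of these data known. Libraries held 11182089 and 15427708 UMI.

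Barcodes with at least 1000 UMI and 500 genes (1843 and 2316) were screened for doublets with Scrublet, which called 1 and 6, too few to have worked as a doublet screen, so doublets remain possible. The 1842 and 2310 cells left were clustered together in scanpy 1.11.5 (2000 variable genes, 30 principal components, 15 neighbours, Leiden resolution 1), leaving out 25 genes: the members and every PAG or TKDP gene with a number. A marker was detected in a cluster at 20 CPM and 25% of its highest cluster, and a cluster took the list with the largest share detected, with at least 3 markers. This naming rule was set after the clusters were seen. Levels are CPM, counts summed per class and library over all UMI of that class. Intervals at 95% are exact Poisson for levels and exact Clopper-Pearson for shares, computed with scipy 1.17.1, and reach no further than counting error. A floor is 3 counts. The 10-fold rule was run on simulated data. TMM factors in edgeR 4.0.16 served as an alternative only.

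Genes named in the text are the members, other PAG and TKDP genes with at least 50 UMI, GFP, examples from the gene lists, and the 10 named genes with the highest Jaccard index. SOX2, AIF1 and the genes of named clusters were added after their values were seen. No interferon tau row was analysed here.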

Additional observations from a re-analysis of the deposited data

How the results depend on the processing

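No alternative with a value turned the direction of a member's difference between trophoblast-like and other cells, but leaving out a library turned the order of members. PAG2 (13349 CPM) was above PAGE4 (12443) and TKDP4 (651) below PAG11 (1389) without replicate 2, and SSLP1 (4606) was above PAG8 (4003) without replicate 1. Pairwise co-detection and gene-list counts were not recomputed under alternatives. The 23 barcodes with at least 3 UMI of any member became 185 at 1 UMI, and leaving out a library gave 9 to 14, and 8 to 12 for the 20 barcodes with 2 or more members; these follow from counting 1 library or single UMI. The summed level outside, 7.68 CPM on average, was 6.77 with TMM factors, 6.73 without the cell at 3 UMI or more, and 6.89 without cluster 15, an alternative chosen after seeing the data; the summed level in trophoblast-like cells ran from 33497 to 37824 CPM over the alternatives that kept both libraries. Without a library the 230 genes at 10-fold or more became 345 to 351, since the call then asks for 1 library. Over the alternatives that kept both libraries, 19 summary values moved by less than the SD between libraries, or for counts by less than 1.5 times, and 4 by more. For single genes these numbers were 97 and 15. With 2 libraries either one always lies within 1 SD of their mean, so that measure says nothing of a library left out: TKDP1 was at 8.79 CPM in replicate 1 alone against a mean of 88.0. The class itself depended on the clustering: at Leiden resolution 0.5 all 17 cells fell in a cluster of 73 that took the cardiomyocyte list, and with each library clustered alone no cluster of replicate 1 qualified, while the class of replicate 2 had 13 cells, of which 9 had a member, at 25023 CPM. No paired analysis was possible because there is 1 group. With 7 and 10 cells, depth limits what can be said of TKDP1 and of low levels in any class.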

Other observations

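One gene without a symbol had barcodes much like those of the members. LOC404103, to which RefSeq gives the synonyms BPTI and SI, stood at 3913 and 7002 CPM in trophoblast-like cells, against 3.37 and 2.97 CPM outside. It shared 14 of its 20 barcodes with the 20 that had 2 or more members, a Jaccard index of 0.538. It was found after the values were seen and carries no test.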
